A study of Mus musculus with 19 samples.

Results

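The 10 genes described here encode the 6 actin isoforms of the mouse (Acta1, Actc1, Acta2, Actg2, Actb and Actg1) and a family of actin-binding proteins named for smooth muscle, transgelin (Tagln) and the calponins Cnn1, Cnn2 and Cnn3. They were chosen by name, as every non-control probe whose gene name in the scanner output was one of the 10, and they were 10 of the 27793 gene names on the array. Together they had 16 probes, of which Acta2 had 5, Actg1 and Tagln had 2 each and the other genes had 1 each. The study compared C2C12 cells that carry extra class IIa histone deacetylases with control cells, and soleus muscle of obese with that of lean mice, on 19 1-colour arrays, each from 100 ng of RNA.

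C2C12 is a mouse myoblast line that can fuse into myotubes in culture. In the group labelled HDAC4&5 (6 arrays) the cells stably carried plasmids for human wild-type HDAC4 and HDAC5, and in the group labelled WT (6 arrays) they stably carried the empty plasmids. Both were selected with hygromycin B and Geneticin at 500 µg/mL each and were collected 48 h after seeding, so the 2 groups share the antibiotic exposure and the vector backbones, and a stably selected line can differ from its control in whatever else the selection fixed. The soleus came from male C57BL6J mice aged 12 weeks and fasted for 5 h, obese and diabetic db/db animals (db, 4 arrays) or lean heterozygous littermates (Con, 3 arrays). The study's methods describe fewer biological replicates per group than there are C2C12 arrays, and the labels do not say which arrays are separate cultures. Some of the 6 arrays of a C2C12 group may therefore be repeats of 1 culture, in which case n and the p-values overstate the evidence, and the p-values measure only the spread between these samples. With the 2 arrays of a group on each slide averaged and counted as 1 sample, which left 3 against 3, the same number of member probes, 12, were called.

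Actin is the subunit of the thin filament and of the cytoskeletal filament. Acta1 and Actc1 encode the skeletal and cardiac alpha actins of the sarcomere, Acta2 and Actg2 the alpha and gamma actins of smooth muscle, and Actb and Actg1 the cytoplasmic actins found in nearly every cell. Developing and cultured muscle cells are known to express Actc1 and Acta2 besides Acta1, and many of these genes are controlled by serum response factor (SRF), which binds a DNA element called the CArG box together with myocardin-related cofactors, while class IIa histone deacetylases such as HDAC4 and HDAC5 are best known in muscle as repressors of MEF2.

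Every value below is a normalised log2 intensity, the log2 of the scanner's processed signal minus the log2 of the 75th percentile of that signal on the same array, so that 0 is the array's 75th percentile and a step of 1 is a doubling. The 75th percentile was 564 to 1691 intensity units on WT arrays, 494 to 873 on HDAC4&5 arrays, 153 to 555 on Con arrays and 180 to 686 on db arrays, and 46.8% to 57.5% of spots were well above background. Differences were tested with limma and Benjamini-Hochberg adjustment across all probes that cleared the background in the whole of 1 or both groups, and a probe was called when its adjusted p was under 0.05. The brightest of these probes reached the scanner's ceiling, and saturated spots, which read 51289 to 78894 intensity units, understate the level. Because the ceiling is fixed in intensity units, it falls at a normalised 5.43 on WT 3, the brightest C2C12 array, and at 6.32 to 6.90 on the other WT arrays. A probe's level depends on its own sequence, so levels are compared between groups and not between probes. In bulk RNA, fewer cells of a type and less RNA per cell cannot be told apart.

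The labels were first checked with the mouse probes for the 2 deacetylases. The Hdac5 probe read 2.19 ± 0.38 (SD, n = 6) in WT and 3.60 ± 0.62 (n = 6) in HDAC4&5 cells, higher by 1.42 on the log2 scale (SE 0.27, limma adjusted p = 0.00039). The Hdac4 probe read 0.28 ± 0.06 in WT and 0.23 ± 0.06 in HDAC4&5 cells, a difference of -0.05 (adjusted p = 0.365). The transgenes are human and the probes were designed on mouse transcripts, and how far either probe binds human RNA was not tested, so neither value is known to measure a transgene.

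In C2C12 cells carrying HDAC4 and HDAC5, the muscle actins, transgelin and the calponins were lower than in cells with empty plasmids, while the cytoplasmic actins Actb and Actg1 did not pass the test. Actb and the brighter, saturated Actg1 probe had no direction that held under every scaling, while the dimmer Actg1 probe was higher in HDAC4&5 cells under every alternative tried. Of the 15 member probes tested, 12 were called lower, 0 were called higher and 3 were not called. Across the array 68.3% of 21478 tested probes were called in either direction, 36.5% higher (7835 probes) and 31.8% lower (6838 probes), so a call by itself was common in this comparison. In the authors' normalised table the split turned round, with 4164 probes higher and 6599 lower. The median difference of the member probes was -1.5 and that of all tested probes was 0.05. The 12 probes called lower belonged to 8 genes, and 11 of them had no overlap between the groups, against 25% of all tested probes that did not overlap and were lower.

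Acta1, the actin of the adult skeletal sarcomere, had the largest difference of the 10 genes. Its single probe (mm9 chr8:126416197-126416256, minus strand) read between 3.82 and 3.91 in the 6 WT arrays, with a median of 3.86, and between -4.67 and -3.0 in the 6 HDAC4&5 arrays, with a median of -3.82. The WT arrays lay close together, the HDAC4&5 arrays were spread more widely, and the groups were far apart. Acta1 fell by 7.63 on the log2 scale, which is 198-fold (SE 0.23, limma adjusted p = 7.02e-12), or by 6.27 with the background modelled by normexp, and the probe was still above background on 6 of 6 HDAC4&5 arrays. Within the 3 slides on which the C2C12 samples were hybridised, each with 2 arrays of each group, the difference was -7.72, -6.91 and -8.25.

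Actc1, the cardiac actin that is also made in immature skeletal muscle, moved in the same direction. Its probe (mm9 chr2:113874011-113874934, minus strand, drawn from both sides of an intron) read between 1.08 and 2.00 in WT, with a median of 1.25, and between -2.52 and -0.97 in HDAC4&5, with a median of -1.70. The groups did not overlap. Actc1 fell by 3.07 on the log2 scale (8.38-fold, SE 0.25, limma adjusted p = 1.65e-07), by similar amounts on each slide, where the differences were -3.06, -2.92 and -3.23.

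**Figure D1:**
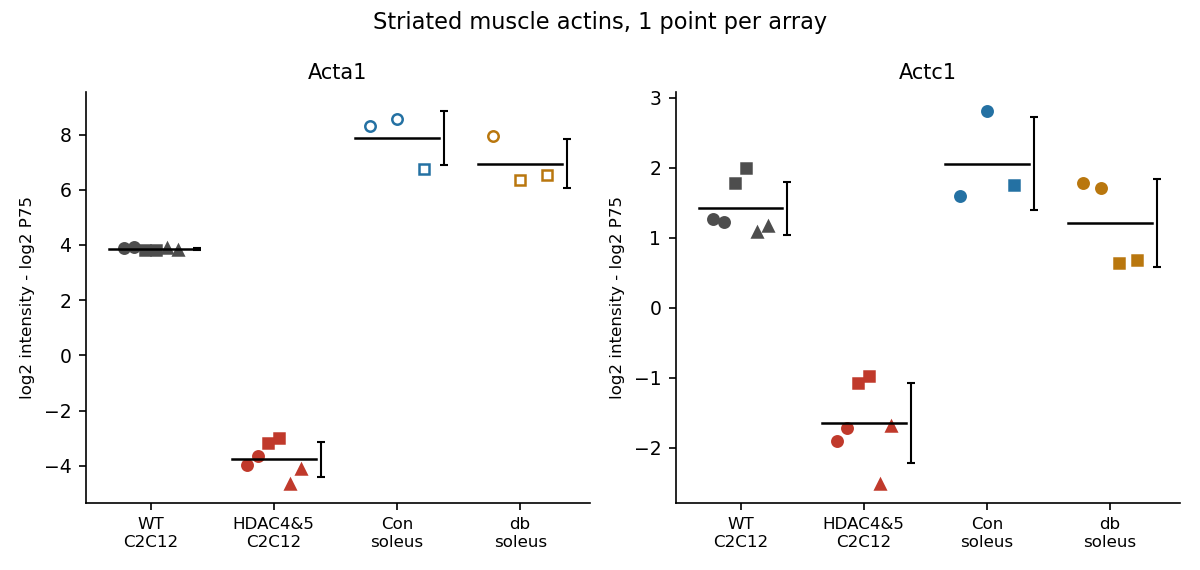
Normalised log2 intensity (y axis; 0 is the array's 75th percentile) of the Acta1 and Actc1 probes on each array, by group (x axis). Circles, squares and triangles are slides 1, 2 and 3, numbered separately for C2C12 and soleus; an open symbol has at least 1 saturated spot, a cross is not well above background, the line is the group mean and the bar its SD. Acta1 sits near 3.86 on all WT arrays and at or below -3.0 on all HDAC4&5 arrays, and every measured soleus array is open, at the scanner's ceiling.

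Acta2, which encodes the alpha actin of vascular smooth muscle and of myofibroblasts, had 5 probes on mm9 chromosome 19, minus strand. The probe printed in 10 spots (chr19:34316060-34316119) read between 5.29 and 6.76 in WT, with a median of 6.41, and between 3.93 and 4.43 in HDAC4&5, with a median of 4.16. The groups did not overlap, although 45 of its 60 WT spots were saturated (2, 10, 10, 10, 6 and 7 of 10 on WT 1 to 6), and no HDAC4&5 spot was. Its difference was -2.09 (SE 0.22, limma adjusted p = 1.65e-06), a value limited by the scanner's ceiling on the WT side, so no fold is given. With saturated spots left out the difference was -2.54, and only the unsaturated spots of WT 1, WT 5 and WT 6 remained in that group.

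The other Acta2 probes gave the same direction with different sizes. A probe that spans a splice junction (chr19:34322995-34326249) read between 4.63 and 4.93 in WT, with a median of 4.78, and between 3.45 and 4.02 in HDAC4&5, with a median of 3.88, and was lower by only 1.95-fold (log2 difference -0.96, SE 0.09, limma adjusted p = 6.82e-07). The third probe (chr19:34315697-34315756) read between 0.11 and 1.12 in WT and between -1.94 and -1.50 in HDAC4&5 and was lower by 5.83-fold (-2.54, SE 0.15, adjusted p = 6.9e-09). The groups overlapped at neither of these probes. The fourth (chr19:34315196-34315254) was dim, above background on 6 of 6 WT arrays but on 1 of 6 HDAC4&5 arrays, with a difference of -2.34 (adjusted p = 2.69e-05) that was -0.13 (adjusted p = 0.770) when the background was modelled with normexp. The fifth (chr19:34327946-34328005) was above background on 1 of 19 arrays, WT 1, and was not tested. The actin isoforms are close in coding sequence. How far RNA of one isoform binds the probe of another was not tested, for Acta2 or for any other actin here.

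**Figure D2:**
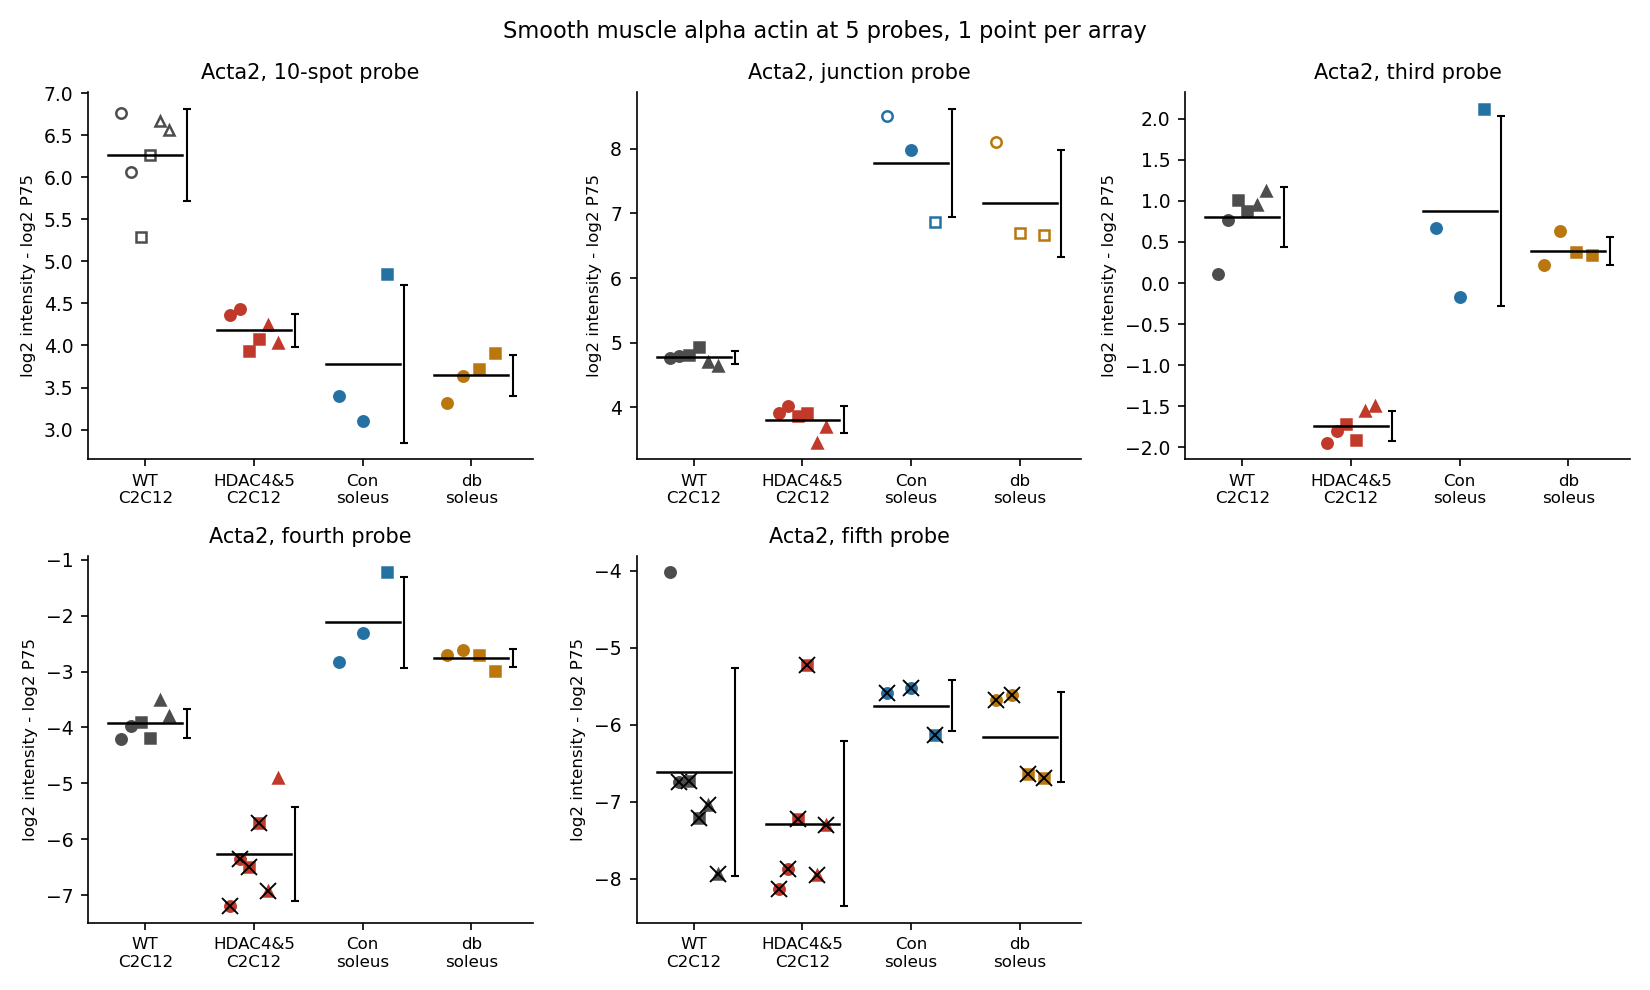
Normalised log2 intensity (y axis) of each Acta2 probe on each array, by group (x axis), with symbols as in the plot of Acta1 and Actc1. The 4 tested probes are each lower in HDAC4&5 than in WT with no shared range, while the junction probe is higher in soleus than in WT and the 10-spot probe is lower there; the fifth probe is a cross on all but 1 array.

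Actg2, the gamma actin of enteric smooth muscle, was the last of the muscle actins to be lower. Its probe (mm9 chr6:83472853-83473179) read between 1.07 and 1.66 in WT, with a median of 1.22, and between -0.63 and 0.25 in HDAC4&5, with a median of -0.30. The groups did not overlap, and Actg2 fell by 1.5 on the log2 scale (2.83-fold, SE 0.15, limma adjusted p = 1.26e-06). The difference was -1.57, -1.37 and -1.56 on the 3 slides. Its values had a Pearson r of 0.996 with those of Actc1 over the C2C12 arrays, which fall in 2 groups. Whether the Actg2 probe also binds Actc1 RNA was not tested.

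The cytoplasmic actins did not follow. Actb (mm9 chr5:143665245-143665304, 10 spots) read between -1.90 and -0.95 in WT, with a median of -1.06, and between -1.75 and -0.86 in HDAC4&5, with a median of -1.13. The 2 ranges overlapped almost entirely, and the difference of 0.07 had a 95% interval from -0.34 to 0.48 (limma adjusted p = 0.757). Its direction was not stable: the difference was 0.37, 0.19 and -0.34 on the 3 slides, -0.06 without WT 3 and -0.11 in the authors' own normalised table.

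Actg1, the cytoplasmic gamma actin, had 2 probes that are best read together. The brighter (mm9 chr11:120207446-120207505) read between 5.31 and 6.90 in WT and between 6.19 and 6.56 in HDAC4&5, but 5 of 6 WT arrays were saturated, so the difference of 0.05 (95% interval -0.43 to 0.52, limma adjusted p = 0.861) rests on capped values. With saturated spots left out 1 WT array remained, WT 5, and the difference from it was -0.29. The probe was called lower with quantile normalisation (-0.28, adjusted p = 0.0279) and in the authors' table (-0.55, adjusted p = 0.0223). The dimmer (chr11:120208371-120208430), which was below the ceiling, read between 4.14 and 5.34 in WT, with a median of 4.91, and between 4.73 and 5.76 in HDAC4&5, with a median of 5.41. These ranges overlapped. The difference was 0.51 (SE 0.22, adjusted p = 0.0593), with 0.58, 0.39 and 0.56 on the 3 slides. With the replicate number as a block it was called, at the same difference of 0.51 (adjusted p = 6.05e-05), and with the slide as a block too (adjusted p = 0.000163). It was also called without WT 4 (adjusted p = 0.0266), HDAC4&5 5 (0.0231) or HDAC4&5 6 (0.0410). With the arrays of a group on 1 slide averaged it was not called (0.51, SE 0.30, adjusted p = 0.190).

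Transgelin, a small actin-bundling protein abundant in smooth muscle, was lower at both of its probes. The dimmer probe (mm9 chr9:45738916-45738975) was measured on all C2C12 arrays, between 0.45 and 0.91 in WT, with a median of 0.69, and between -1.43 and -1.0 in HDAC4&5, with a median of -1.08. It was lower by 3.61-fold (-1.85, SE 0.10, limma adjusted p = 1.34e-09). At the brighter probe (chr9:45738097-45738156) the spot was an outlier on 4 of 6 WT arrays and was left out there, and the other 2 read 4.08 and 3.78 against 2.15 to 2.38 in HDAC4&5. The groups did not overlap at either probe, and the brighter gave 3.22-fold lower (-1.69, adjusted p = 5.77e-07).

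The calponins, which bind actin and in smooth muscle restrain the myosin ATPase, were lower by smaller amounts. Cnn2 (mm9 chr10:79457785-79457844), a calponin of many cell types, read between 4.25 and 4.48 on the 5 WT arrays where it was not an outlier and between 3.41 and 3.57 on the HDAC4&5 arrays. The groups did not overlap, and Cnn2 was lower by 1.86-fold (-0.90, SE 0.06, limma adjusted p = 2.31e-08). Cnn1 (chr9:21913058-21913117), the calponin of differentiated smooth muscle, read between -1.86 and -1.52 in WT and between -2.17 and -1.97 in HDAC4&5, lower by 1.33-fold (-0.41, SE 0.07, adjusted p = 0.000208) with no overlap. With the background modelled by normexp this was -0.14 (adjusted p = 0.341). Cnn3 (chr3:121160583-121160642), also called acidic calponin, read between 5.12 and 5.96 in WT and between 5.15 and 5.41 in HDAC4&5, and its groups overlapped because WT 3, where the spot was saturated, read 5.12. Its difference was -0.44 (SE 0.13, adjusted p = 0.00793).

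**Figure D3:**
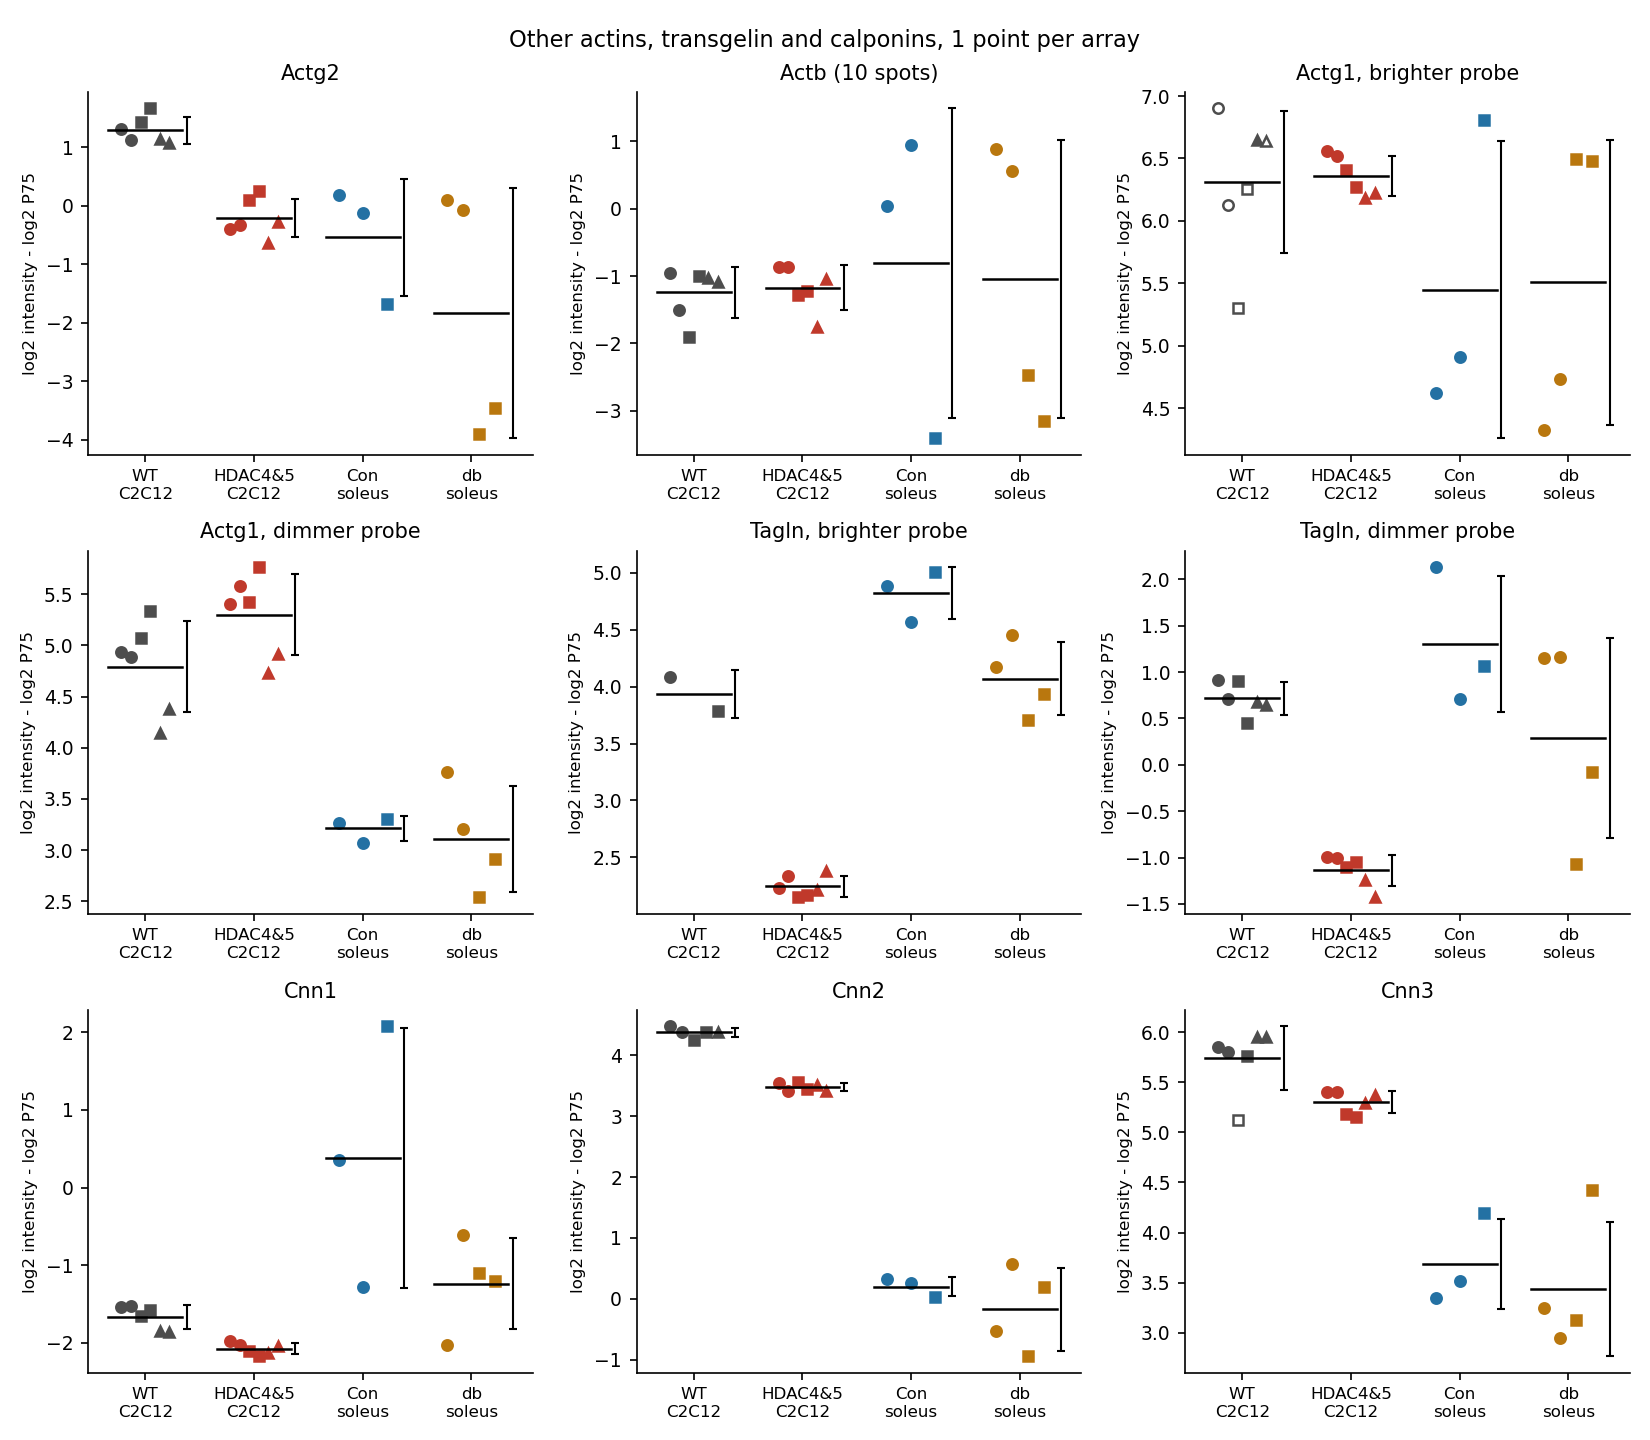
Normalised log2 intensity (y axis) of the Actg2, Actb, Actg1, Tagln, Cnn1, Cnn2 and Cnn3 probes on each array, by group (x axis), with symbols as in the plot of Acta1 and Actc1. Actg2, both Tagln probes, Cnn1 and Cnn2 separate WT from HDAC4&5, while Actb, Actg1 and Cnn3 do not. In soleus Actb, Actg2 and the brighter Actg1 probe separate by slide rather than by group.

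The promoters of the members were read from RefSeq sequence (GRCm38.p6), 250 bases before to 50 after each start, because CArG boxes are known in several of these genes. The table held 7 of the 10 members, without Actb, Actg2 and Tagln. A CArG box, written as CC, then 6 bases each A or T, then GG, and searched on both strands, was found in 4 of the 7, Acta1, Actc1, Actg1 and Cnn2, and in 1.63% of all 32851 promoter windows of this length. The MEF2 motif was found in 0 of the 7 and in 3.19% of all windows. Stretches around the 4 boxes are printed with the box in capitals.
Acta1, chr8:123894799-123894888, minus strand: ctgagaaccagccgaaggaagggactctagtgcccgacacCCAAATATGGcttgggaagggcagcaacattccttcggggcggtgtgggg
Actc1, chr2:114052876-114052962, minus strand: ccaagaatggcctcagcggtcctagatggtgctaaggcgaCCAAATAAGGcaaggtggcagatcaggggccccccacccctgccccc
Actg1, chr11:120348536-120348625, minus strand: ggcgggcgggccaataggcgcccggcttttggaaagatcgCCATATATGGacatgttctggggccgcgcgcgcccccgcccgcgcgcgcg
Cnn2, chr10:79988504-79988593, plus strand: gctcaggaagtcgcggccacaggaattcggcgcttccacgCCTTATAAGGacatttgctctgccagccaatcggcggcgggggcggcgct
The boxes ended 64, 38, 81 and 47 bases before the annotated start of Acta1, Actc1, Actg1 and Cnn2. Counted in bases before that start, the letters TATAA stood at 7 in Acta1 and at 53 in Cnn2, inside its box. In Actc1 they stood at -33, which is after the start. Whether transcription begins at the annotated starts was not tested. Of these 4 genes Acta1, Actc1 and Cnn2 were called lower in HDAC4&5 cells. The 3 searched members without a box, Acta2, Cnn1 and Cnn3, were called lower too, where 32.6% of all tested genes were. Actg1 was not called at either probe in the main test, which has no block. Calls of Actg1 under the alternatives given with its values went in both directions. A match describes the letters of the window and is neither a binding site nor a cause, and the absence of a match in Acta2, Cnn1 and Cnn3 says only that these letters are not in these 300 bases.

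Genes that work with actin were described with 1 probe a gene, for which 69% of 14142 tested genes were called in either direction, 36.3% higher and 32.6% lower, with a median difference of 0.05. Of 15 smooth muscle contractile genes outside the members, 10 were tested, 5 were called lower, 1 was called higher and 4 did not pass, with a median of -0.32. Synpo2, an actin-bundling protein that is also found at the Z-disc, fell by 6.80 and Myl9, the regulatory light chain of smooth muscle myosin, fell by 5.05, while Mylk, the kinase of that light chain, rose by 2.98 from a level above background on 4 of 6 WT arrays. Myh11, the myosin heavy chain that defines smooth muscle, was above background on 1 HDAC4&5 array and on 0 WT arrays and was not tested. Tpm2 (0.06) and Smtn (0.03) did not pass.

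SRF regulators and targets gave 10 called lower, 1 higher and 7 not passed of 18 tested, with a median of -0.69. Srf itself differed by 0.08 (limma adjusted p = 0.260) and its cofactor Mrtfa by 0.04 (adjusted p = 0.705), while the related cofactor Mrtfb fell by 0.95 (adjusted p = 2.08e-08) and Myocd, the myocardin of heart and smooth muscle, was above background on 1 WT array only. Fos, an immediate early target, was not well above background on any HDAC4&5 array and was at least 8.46-fold lower there. Fhl2, a LIM-domain partner of SRF, rose by 0.68, and Mamstr, another muscle cofactor, fell by 2.80 to a level above background on 1 of 6 HDAC4&5 arrays.

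With the background filter used here, the sarcomeric thin filament list had the lowest median of the lists of actin-related genes in this comparison. Of its 13 tested genes 10 were called lower, 3 were called higher and 0 did not pass, with a median of -6.01, or -5.12 when genes below background in HDAC4&5 were set at their bound. With the background modelled by normexp 9 were lower and 2 were higher, with a median of -2.66. Xirp1, an actin-binding repeat protein, fell by 7.89 (above background on 2 of 6 HDAC4&5 arrays) and Actn3, the alpha-actinin of fast fibres, fell by 7.75. Tmod4 and Tpm1, a pointed-end cap and a tropomyosin with isoforms in many tissues, rose by 1.13 and 0.61. Genes of general actin assembly and turnover moved less, with 14 lower, 3 higher and 12 not passed of 29 and a median of -0.22. Among them Pfn2, a profilin, fell by 2.50 and Gsn, the severing protein gelsolin, saturated on 2 of 6 WT arrays, fell by 1.45, and Tmod3 and Actr3 rose by 1.39 and 0.38. Of 5 tested actin-related genes and transgelin relatives, Tagln2, saturated on 1 of 6 WT arrays, rose by 0.33 and Actr1a fell by 0.46, with a median of 0.15. With quantile normalisation 0 of these 5 were higher and their median was -0.10. A stricter filter, which asks for signal above background on every array of both groups and so removes genes that fell below it, left 5 sarcomeric thin filament genes, 2 lower and 3 higher. Their median was 0.37, above that of the SRF list (-0.34) and the smooth muscle list (-0.32) under this filter, so the ranking did not hold. Many thin filament genes had passed the main filter only through WT, where they were high, and the ranking rests on them.

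Markers of cell state moved with these genes, and their part in the actin differences was not tested. Of the myoblast markers 4 of 4 tested were called lower. Des, the muscle intermediate filament protein desmin, fell by 8.45 from a WT level that was saturated on 2 of 6 arrays and so capped, and Myod1, the myogenic determination factor, was not well above background on any HDAC4&5 array and was at least 263-fold lower. Of the myocyte differentiation markers 8 of 8 were lower (Myog fell by 9.67, and Ttn, the giant sarcomere protein titin, not well above background on any HDAC4&5 array, was at least 214-fold lower), as were 8 of 9 slow fibre markers (Tnnt1 fell by 8.57, Tnni1, the slow troponin I, also not well above background in HDAC4&5, was at least 276-fold lower, and Myh7 rose by 1.44). Of the fast fibre markers 6 of 6 tested were lower, and the fast troponins Tnni2 and Tnnc2 had log2 differences of -8.84 and -7.88. Of the 8 myocyte markers 7 passed the background filter only through WT, where they were high, so that count is not independent of the filter. With the filter that asks for signal on every array of both groups 1 myocyte marker was left, and it was lower, with 3 slow fibre markers lower and 1 higher of 4, and 3 of 3 fast fibre markers lower. With the background modelled by normexp 7 of 8 myocyte, 7 of 9 slow fibre and 5 of 6 fast fibre markers were called lower. The summed level of the 9 fast fibre markers, in multiples of the array's 75th percentile, was 32.5 to 79.7 in WT and 0.33 to 0.716 in HDAC4&5, and of the 6 myoblast markers 71.7 to 188 and 2.08 to 2.28. Fibroblast markers were mixed, with Col1a1 and Pdgfra higher by 3.34 and 2.18 and Col1a2 and Dcn lower by 2.43 and 1.32, where Col1a2 was saturated on 3 of 6 WT arrays and its difference is capped on that side. Mural cell markers were mixed too, since Pdgfrb rose by 1.2 while Notch3 fell by 3.86 and Cspg4 by 3.56. No endothelial or adipocyte marker was bright enough to be tested in C2C12 cells. Of the 2 macrophage markers tested Cd14 rose by 1.63 and Cd68 fell by 0.42, the erythrocyte gene Hba-a1 fell by 2.39, and of 2 Schwann cell markers S100b fell by 0.86.

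**Figure D4:**
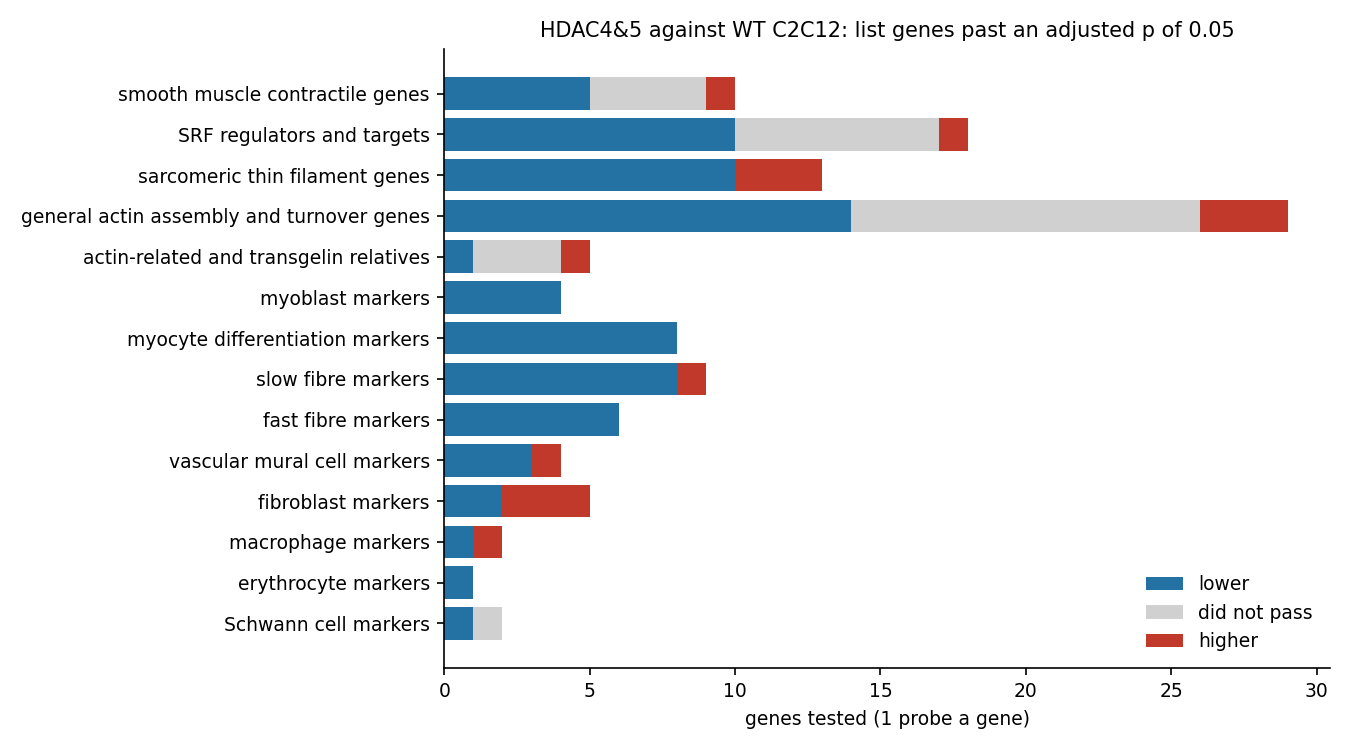
Number of tested genes (x axis, 1 probe a gene) in each list of actin-related and marker genes (y axis), for HDAC4&5 against WT. Stacked bars give the genes lower, not passed and higher at a limma adjusted p under 0.05, and lists without a tested gene are left out. The sarcomeric thin filament list has 10 lower, 0 not passed and 3 higher of 13. The general actin assembly list has 14 lower, 12 not passed and 3 higher of 29.

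In soleus no member was called between db/db and control mice. Of 15 probes tested, 0 passed the adjusted p, 14 were lower and 1 was higher in db, and 1 had an unadjusted p under 0.05, against 0.00539% of 18540 tested probes called and 6.43% with an unadjusted p under 0.05. Their median difference was -0.63 and that of all tested probes was 0.02. The limma adjusted p of the members ran from 0.762 to 0.993, and the intervals, which come from the fit without the slide, were wide. With the slide as a block the SE fell from 1.32 to 0.30 for Actb and from 0.74 to 0.20 for the brighter Actg1 probe, and 0 members were called. The 3 Con and 4 db arrays lay on 2 slides (Con 1, Con 2, db 1 and db 2 on one, the rest on the other) whose 75th percentiles were 153 to 232 and 555 to 686, and the values of several members followed the slide.

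Acta1 was at the ceiling of the scanner in soleus. It read 8.33, 8.57 and 6.76 in Con and 7.96, 6.34 and 6.55 in db 2 to 4, all saturated, and the db 1 spot was an outlier and was left out. Because both groups were saturated these values give no fold change. Actc1 read 1.60, 2.82 and 1.76 in Con and 1.79, 1.72, 0.65 and 0.68 in db. The groups overlapped, and the difference was -0.85 (95% interval -1.91 to 0.21, limma adjusted p = 0.830), with -0.45 and -1.10 on the 2 slides.

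For Acta2 the 10-spot probe read 3.40, 3.10 and 4.84 in Con and 3.32, 3.64, 3.72 and 3.91 in db, a difference of -0.14 (95% interval -1.17 to 0.90). The high value was Con 3, and without it the difference was 0.40. The junction probe read 8.51, 7.98 and 6.86 in Con and 8.10, 6.69 and 6.67 in db 2 to 4, with db 1 left out as an outlier, and all of these but Con 2 were saturated. Actg2 read 0.19, -0.13 and -1.69 in Con and 0.09, -0.08, -3.90 and -3.46 in db. It was near 0 on the first slide in both groups and far lower on the second, where db lay -1.99 from Con.

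Actb had the widest range in soleus, and it followed the slide. It read 0.05 and 0.94 in Con and 0.88 and 0.56 in db on the first slide, and -3.41 in Con and -2.47 and -3.15 in db on the second. The difference between db and Con was -0.24 over all arrays, 0.23 and 0.60 within the slides and 0.37 with the slide as a block. The brighter Actg1 probe followed the slide too, in the opposite direction. It read 4.62 and 4.91 in Con and 4.32 and 4.73 in db on the first slide, and 6.81 in Con and 6.49 and 6.48 in db on the second. The dimmer Actg1 probe varied less, between 3.07 and 3.30 in Con and between 2.54 and 3.77 in db, with a difference of -0.11 (95% interval -0.91 to 0.70).

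Transgelin gave the only unadjusted p under 0.05. Its brighter probe read 4.88, 4.57 and 5.01 in Con and 4.18, 4.46, 3.71 and 3.94 in db. Every db array lay below every Con array, as at 4.55% of all tested probes. The difference was -0.75 (SE 0.30, limma adjusted p = 0.762), with -0.41 and -1.19 on the 2 slides. Its dimmer probe overlapped, at 2.13, 0.71 and 1.07 in Con and 1.15, 1.16, -1.06 and -0.08 in db. Cnn1 read 0.35, -1.28 and 2.07 in Con and -2.02, -0.61, -1.10 and -1.20 in db, a difference of -1.62 (adjusted p = 0.785) in which the Con values spread far more than the db values. It was -0.77 without Con 3 and -2.45 without Con 2. Cnn2 and Cnn3 differed by -0.38 and -0.25 and overlapped.

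Soleus holds vessels, and their markers were read beside these values. All 6 endothelial markers and all 6 mural cell markers were above background on every soleus array. The summed endothelial level was 34.1, 35.7 and 43.3 in Con and 14.99 to 25.6 in db, with Emcn the brightest, and these ranges did not overlap. No endothelial marker passed the adjusted p, although Cdh5 (-1.06), Kdr (-1.10) and Emcn (-0.81) had an unadjusted p under 0.05, and the median of the 6 was -0.67 against -0.02 for all genes. The summed mural level was 59.8 to 116 in Con and 22.2 to 150 in db, and the smooth muscle contractile genes outside the members had a median of -0.37 over 14 tested, with 0 called and with Myl9 at -0.68 (adjusted p = 0.878). The part of these markers in the transgelin and calponin values was not tested. None of the 16 lists had a gene that passed without a block (0 genes, where 0.00767% of genes passed with 1 probe a gene). With the slide as a block 1 list gene passed, Lep, the adipocyte hormone leptin, which was higher in db by 3.66 (limma adjusted p = 0.0396) and was above background on 1 of 3 Con arrays. The adipocyte markers did not move together. The median difference of the 6 was 0.63, while their summed level was lower on every db array (55.0, 62.9, 83.8 and 93.6) than on every Con array (175.8, 107.3 and 117.0). Cfd, which encodes adipsin, was the brightest on all but db 2 and differed by -1.91 (limma adjusted p = 0.637).

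**Figure D5:**
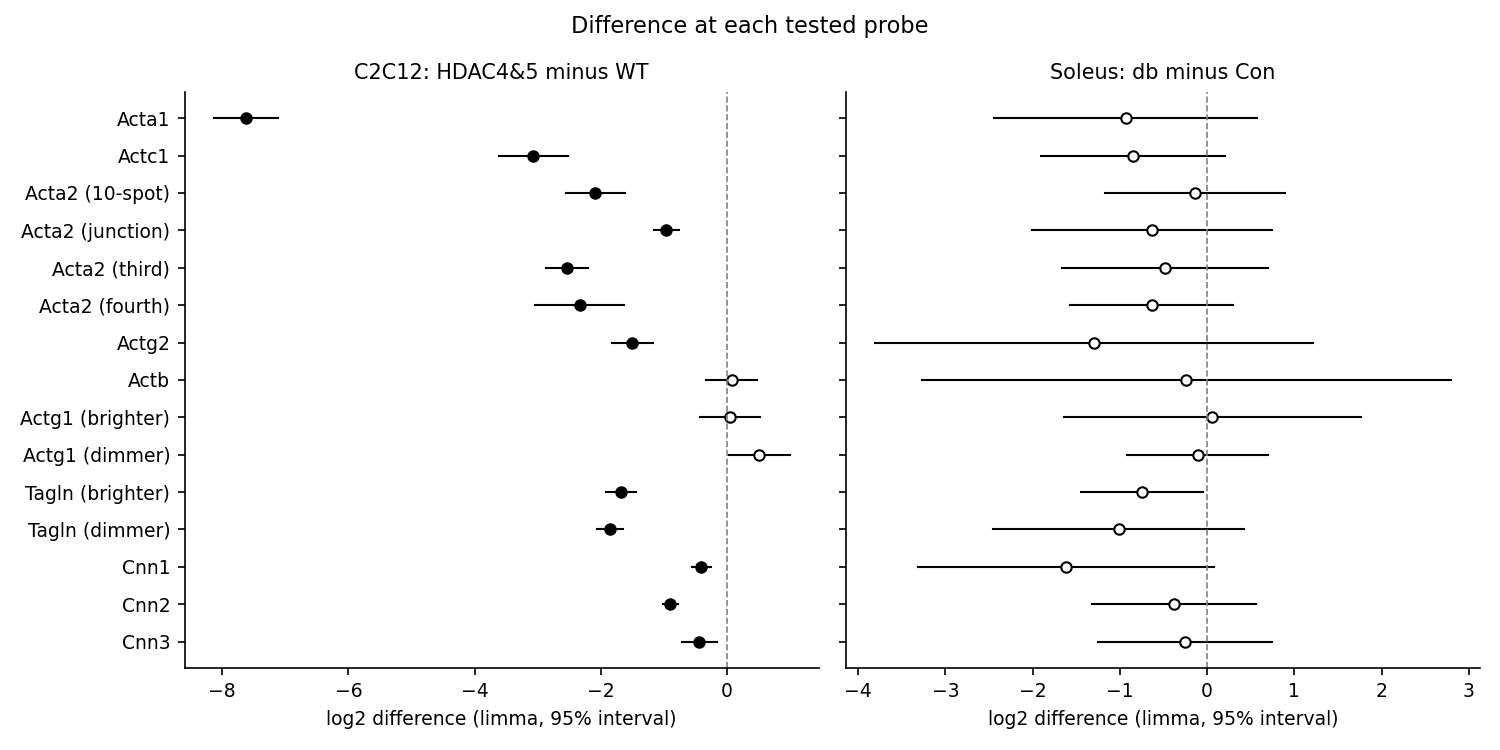
Log2 difference (x axis) of each tested member probe (y axis) in HDAC4&5 against WT and in db against Con. Bars are 95% intervals and filled points had a limma adjusted p under 0.05. In C2C12 the muscle actins, Tagln and the calponins lie below 0 and Acta1 lies furthest out at -7.63, whereas every point of db against Con is open.

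Con soleus was set against WT C2C12 to place the members' levels in intact muscle beside those in the cell line. Tissue, slide and RNA extraction all differed between these groups and cannot be told apart. Of 15 probes 5 were called higher in soleus, 5 were called lower and 5 were not called, where 74.2% of 22639 tested probes were called, 34.4% higher (7777 probes) and 39.9% lower (9027 probes). Under normexp the counts over all probes were 9832 higher and 6842 lower. The median difference was 0.44 for the members and -0.16 for all tested probes.

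Acta1, Cnn1 and the brighter Tagln probe were among those higher in soleus. Acta1, at 7.88 ± 0.98 (SD, n = 3, all saturated) in Con against 3.86 ± 0.04 (n = 6) in WT, was higher in soleus by 4.02 on the log2 scale (16.2-fold, limma adjusted p = 1.54e-06). This difference is capped on the Con side. It ran from 3.68 to 4.58 when 1 array was left out and was 2.66 with quantile normalisation. Cnn1 read 0.38 ± 1.68 in Con and -1.67 ± 0.15 in WT, higher by 2.05 on the log2 scale (adjusted p = 0.00671), by 1.2 without Con 3 and by 2.88 without Con 2. The brighter Tagln probe was higher by 0.89 (adjusted p = 0.0151) with 2 WT arrays measured, and it was not called without WT 3 (adjusted p = 0.0956), with quantile normalisation (0.63, adjusted p = 0.0720) or with normexp (0.61, adjusted p = 0.0536). The dimmer Tagln probe was not called (0.59, adjusted p = 0.0751). Actc1 at 2.06 ± 0.66 in Con and 1.42 ± 0.38 in WT was not called (adjusted p = 0.0826), though it was without WT 4 (0.0458) or Con 1 (0.0430).

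The probes of Acta2 disagreed in direction in this comparison. The junction probe was higher in soleus by 3.01 (limma adjusted p = 5.65e-06), although it was saturated on 2 of 3 Con arrays, and by 1.82 with quantile normalisation. The fourth was higher by 1.81 (adjusted p = 0.000404), or by 1.16 with quantile normalisation, and the third differed by 0.07 (adjusted p = 0.890). The 10-spot probe was lower, with a difference of -2.49 (adjusted p = 0.000341), but it had saturated spots on 6 of 6 WT arrays, so no fold is given. No single direction is therefore given for Acta2 between soleus and C2C12.

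Cnn2, Cnn3, Actg2 and the dimmer Actg1 probe were lower in soleus. Cnn2 read 0.20 ± 0.15 (SD, n = 3) in Con and 4.38 ± 0.08 (n = 5) in WT, 18.1-fold lower (limma adjusted p = 5.92e-09), and Cnn3 had a difference of -2.05 (adjusted p = 2.31e-05), capped by a saturated spot on 1 of 6 WT arrays. The dimmer Actg1 probe was lower by 2.99-fold (-1.58, adjusted p = 0.000244), while the brighter, capped in WT, differed by -0.87 and was not called (adjusted p = 0.132). Actg2 was 3.55-fold lower (-1.83, adjusted p = 0.000938). Actb was not called (0.44, adjusted p = 0.620), and its value changed with the arrays used, since it was 1.74 (adjusted p = 0.00066) without Con 3 and -0.44 without Con 2. In order of group mean, Acta1 was highest in Con, then db, WT and HDAC4&5, with Con and db not separable at the ceiling, whereas Cnn2 was highest in WT, then HDAC4&5, Con and db, with Con and db overlapping.

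Genes of the smooth muscle list and vascular markers outside the members were mostly higher in soleus than in C2C12. The brightest gene of the smooth muscle list on each Con array was Tpm2 or Synpo2, and Synpo2 is also found at the Z-disc. The part of muscle fibres in the values of this list was not tested. Of 14 tested smooth muscle contractile genes 11 were higher, 2 were lower and 1 did not pass, with a median of 3.25 against -0.02 for all genes, where 75% of 15062 genes were called, 37.2% higher and 37.8% lower. Pgm5 and Ppp1r12b were higher by 9.42 and 8.01, Cald1 and Csrp1 were lower by 1.89 and 1.79 (log2 differences of -1.89 and -1.79), and Myh11, not above background on any WT array, was at least 58.4-fold higher. Of 30 general actin assembly genes 19 were lower and 5 were higher. Cap2, an actin-binding protein of striated muscle, and Pfn2 were higher by 8.59 and 2.42 (Cap2 was above background on 3 of 6 WT arrays), Ezr, which links actin to the membrane, had a difference of -5.03, and Diaph3, a formin not above background on any Con array, was at least 14.6-fold lower. Of 18 SRF regulators and targets 12 were lower and 4 were higher. Srf itself was higher by 0.76 (limma adjusted p = 0.0197), Mrtfa and Mrtfb had differences of -1.25 and -1.74, Myocd was not tested, Mamstr and Fos were higher by 5.51 and 2.16, and Ankrd1 and Tgfb1i1 had differences of -4.60 and -2.58. Of 14 sarcomeric thin filament genes 12 were higher and 1, Tpm3 (-1.78), was lower. Tmod4 was higher by 10.56, and Actn2, the Z-disc alpha-actinin of all striated fibres, was above background on 0 WT arrays and at least 8517-fold higher. Of 5 actin-related genes and transgelin relatives Actr1b and Actr10 were higher by 1.42 and 0.88, and Tagln2 and Actr1a had differences of -3.91 and -1.13. Saturated spots cap some of these values, on 3 of 6 WT arrays for Ankrd1, on 1 WT array each for Ezr, Tpm3, Tagln2 and Actr10 and on 1 of 3 Con arrays each for Tmod4, Actn2 and Actr10. All 6 endothelial markers were called higher, and none was above background on a WT array, so they passed the filter only through Con.

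The genes whose values most resembled those of 4 members were named by Pearson correlation over the arrays where both were measured, among 15522 genes. Acta1 was most like Mylpf (r = 0.998 over 16 arrays), Synpo2 (0.998 over 18) and Tnnt1 (r = 0.997 over 17), which are the fast myosin light chain, an actin-bundling protein and the slow troponin T. The Acta1 values were capped on every measured soleus array. Actc1 was most like Mmp15 (r = 0.969 over 19 arrays), Epha4 (0.968 over 19) and Dusp1 (0.962 over 16). For the Acta2 junction probe they were an unnamed transcript, Adssl1 (0.991 over 16) and Trak1 (0.990 over 15), though that probe was capped in soleus. For the 10-spot Acta2 probe they were another unnamed transcript, Nsg1 (0.948 over 19) and Bcar3 (0.942 over 19), none of which was shared with the junction probe. The 10-spot probe had saturated spots on 6 of 6 WT arrays. For Tagln they were Sike1 (0.977), Fhod3 (0.975) and Fos (0.973), over 15 arrays. The points fall in 4 groups and share slides, so these values describe these arrays only.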

How the data were processed

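RNA was measured on 1-colour Agilent arrays, and the deposited scanner files hold processed intensity per spot, background-subtracted by the authors' software (Agilent Feature Extraction 9.5.1.1 per the submitters' processing notes), with probe positions in mm9. The authors also deposited a table of normalised values, each a ratio of intensity to a per-array constant. Its 12 C2C12 columns matched the scanner intensity within 0.01 on the log2 scale and served as an alternative, and its 7 soleus columns were not used because they did not match. Here log2 of the processed intensity minus the log2 of each array's 75th percentile was computed. Control and outlier spots were left out, saturated spots were kept, and spots of a probe were averaged. Names were looked up through RefSeq accessions for 27198 probes, of which 2694 received an updated symbol. No mm9 annotation was used, so exons and UTRs are not given. Tests used lmFit and eBayes of limma 3.58.1 (R 4.3.3) without a block, and the code was tested on simulated data.

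The members and gene lists were chosen with earlier results of these data known. All member probes are named, and from each list the 2 largest rises and falls among called genes, with Srf, Mrtfa, Mrtfb and Myocd always. Tpm2, Smtn and Myh11 in C2C12 cells, and Myl9 and the endothelial genes in soleus, were named after their values were seen, as were Lep and Cfd. For Con against WT the genes of the marker lists are not named one by one. Same-numbered samples deviated together (r of 0.229 to 0.587 over 6 C2C12 pairs and 0.354 to 0.660 in soleus), as did differently numbered samples of the same slide (0.221 to 0.544 and 0.262 to 0.730), while samples of different slides did not (-0.484 to 0.0502 and -0.638 to -0.319). The numbers therefore carry the slide. Replicates correlated at 0.985 to 0.993 in WT, 0.978 to 0.993 in HDAC4&5, 0.954 to 0.980 in Con and 0.915 to 0.976 in db. Alternatives were quantile normalisation, normexp background, other filters, saturated spots left out, the authors' normalised table, the methods' t-test, slide and replicate blocks, each replicate left out and, chosen after seeing the data, arrays of a C2C12 group on 1 slide averaged. The number of arrays limits the precision.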

Additional observations from a re-analysis of the deposited data

Results flagged for a closer look

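Over 45 combinations of a probe with a group of 4 to 6 measured arrays, 4 held an array whose gap to the next was large for the group's range, where chance flags about 1 in 20 (2.25 of 45). For the third Acta2 probe, WT 1 read 0.11 and the next WT array 0.77. For the fifth Acta2 probe, WT 1 read -4.02 with the next at -6.73, and HDAC4&5 4 read -5.22 with the next at -7.23, and of these only WT 1 was above background. For Cnn3, WT 3 read 5.12 and the next WT array 5.77. The Cnn3 spot was saturated on WT 3.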

How the results depend on the processing

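In the C2C12 comparison 355 of 369 member values under the alternatives kept direction and call, in soleus 256 of 276 and in Con against WT 266 of 279. In C2C12, 14673 probes were called, 10484 to 16465 under the alternatives that test all probes and 9802 of 14142 with 1 probe a gene. The authors' normalised table turned the split to 4164 higher and 6599 lower. The median of all probes, 0.05, was 0.16 with normexp, 0.27 with no filter on dim probes and -0.11 in that table. In Con against WT it was -0.16, -0.43 with quantile normalisation, 0.31 with normexp and 1.39 with no filter. With the arrays of a group on 1 slide averaged (chosen after seeing the data) 12318 probes and 12 member probes were called. With the replicate block 16286 probes and 13 member probes were called. The brighter Actg1 probe became -0.28 with quantile normalisation, -0.10 with normexp, -0.29 without saturated spots (which left 1 WT array, WT 5, against 6), -0.55 in the authors' table and -0.15 to 0.16 when 1 array was left out (negative without WT 3). Actb became -0.11 in the authors' table and ran from -0.060 to 0.19 (negative without WT 3).

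In soleus 1 probe was called, against 2 with quantile normalisation, 0 with normexp, 0 with a stricter filter, 1406 by the methods' t-test without adjustment and 3 with it, 32 with the slide as a block, 35 with that block and saturated spots left out (chosen after seeing the data) and 0 to 1 when an array was left out. The methods' t-test called 1 member probe, the brighter Tagln, without adjustment and 0 with it, and the replicate block called 1 probe and 0 members. The brighter Actg1 probe became -0.15 with quantile normalisation, -0.27 with the slide block, -0.26 with the replicate block and -0.27 with slide block and no saturated spots, and ran from -0.35 to 0.74 when an array was left out (negative without Con 1, Con 2, db 3 or db 4). Actb became 0.37, 0.46 and 0.37 with those 3 blocks and ran from -1.54 to 0.64 (positive without the same 4 arrays). Without Con 3 the third Acta2 probe (range -1.0 to 0.14), the 10-spot probe (-0.48 to 0.40) and Cnn3 (-0.58 to 0.00067) turned, and without db 3 the dimmer Actg1 probe (-0.33 to 0.081).

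In Con against WT 16804 probes were called, and 32617 with no filter on dim probes, which adds probes to the test. The brighter Tagln probe lost its call with quantile normalisation (0.63, adjusted p = 0.0720) and normexp (0.61, 0.0536). Actb became -0.031 with the slide as a random block and ran from -0.44 to 1.74, and the third Acta2 probe ran from -0.55 to 0.59 (negative without WT 1 or Con 3). The dimmer Tagln probe was called without Con 2 (0.88, 0.0136) and the brighter Actg1 probe with quantile normalisation (-1.50, 0.00115) or without Con 3 (-1.55, 0.00394). Where a cause is not named, the cause was not tested. Saturation limits Acta1 and the Acta2 junction probe in soleus and the 10-spot Acta2 and brighter Actg1 probes in WT.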

Other observations

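Actb was printed in 10 spots on each array, which gives its error within an array. The SD of those spots was 0.0552 to 1.1 on the log2 scale, with a median of 0.0936 over the 19 arrays. Mouse Hdac4 and Hdac5 in soleus differed between db and Con by 0.20 (limma adjusted p = 0.981) and 0.16 (adjusted p = 0.987), with 3 arrays a group because 1 db spot of each was an outlier.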
